A study of Mus musculus with 6 samples.

Results

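The Lin28 and Hmga developmental timing genes were examined in wild-type (WT) and Smad2/3 double knockout (DKO) mouse epiblast-like cells (EpiLCs). The group holds 6 genes, Lin28a, Lin28b, Trim71, Hmga1, Hmga2 and Dis3l2, out of 24288 gene symbols in the deposited expression table. They were chosen by name, and where a symbol had several rows the row with the highest total over all libraries was used. All 6 genes passed the filter on low values, which 17038 genes passed in all.

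EpiLCs are the cultured counterpart of the early post-implantation epiblast. They were made without feeder cells from embryonic stem cells (ESCs) held in 2i + LIF medium, by treatment for 48 h with activin A at 20 ng/ml and Fgf2 at 12 ng/ml, and total RNA was sequenced on day 2 after removal of ribosomal RNA. The WT cells were the CCE line (129/Sv//Ev). The DKO cells were the clone KT15.1F6, in which exon 1 of Smad3 had been deleted with a CRISPR nickase in Smad2 tm1Rob/tm1Rob ESCs, so that Smad2 and Smad3, the transcription factors that carry Nodal and activin signals to the nucleus, were both mutated. Each genotype had 3 libraries from independent differentiations. Since each genotype was represented by a single line, line and genotype cannot be told apart, and p-values cover the spread between differentiations of those lines. In the targeted gene Smad3, the WT libraries held 799, 846 and 873 normalized reads and the DKO libraries 21.5, 30.5 and 18.7. Reads over the Smad2 gene body were not reduced, at 4520 ± 86.3 (SD, n = 3) in WT and 5062 ± 109 (SD, n = 3) in DKO cells. The files gave 57644143 to 63046034 reads per library over the gene table. The epiblast markers Pou5f1, Sox2, Fgf5, Otx2, Dnmt3b and Pou3f1 were detected in every library, summing to between 105670 and 109460 normalized reads in WT and between 102350 and 103770 in DKO cells. Among them Sox2 rose, whereas Fgf5 and Pou3f1 fell.

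Lin28, its target let-7 and the let-7 target lin-41 (Trim71 in mammals) were first known as heterochronic genes, which set the timing of cell fates during nematode development. Lin28a and Lin28b are RNA-binding proteins with a cold-shock domain and a pair of zinc knuckles. They bind the loop of let-7 precursor RNAs and block the production of the mature microRNA, in the case of Lin28a by recruiting enzymes that add a uridine tail, which the exonuclease Dis3l2 then recognises and degrades. Mature let-7 in turn represses Lin28a, Lin28b, Trim71 and Hmga2 through their 3′ untranslated regions (UTRs), so that the pathway is known as a double-negative loop. Trim71 is a TRIM-NHL RNA-binding protein of pluripotent and early embryonic cells, and Hmga1 and Hmga2 are AT-hook proteins that bind the minor groove of AT-rich DNA and shape chromatin.

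The sequences through which let-7 meets these genes were read from reference files, as the table of reads holds no sequence. The RefSeq microRNA table (GRCm38.p6) held 9 distinct mature let-7 family sequences from the 5′ arm, and all 9 carried the same seed at bases 2 to 8, GAGGUAG. Across the table, 11 of 1679 mature names carried this seed. The following 4 are shown, let-7a as the founding member and the others because their hairpins gave most reads in these libraries, with the seed in capitals.
mmu-let-7a-5p: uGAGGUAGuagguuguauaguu
mmu-let-7f-5p: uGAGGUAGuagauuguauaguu
mmu-let-7g-5p: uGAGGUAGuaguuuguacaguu
mmu-miR-98-5p: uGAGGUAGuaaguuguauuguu

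The zinc knuckles of Lin28 are known to recognise GGAG in the let-7 precursor loop. Between the arms of the 12 let-7 family hairpins, GGAG was found on the given strand in 9 and not in Mir98, Mirlet7b and Mirlet7c-2. Over all 644 mouse hairpins with both arms in the table, 52 (8.07%) held GGAG between the arms. This count did not leave out let-7 hairpins and was not matched for the length between the arms. A hairpin with the motif (Mirlet7g, chr9:106178840-106178927, plus strand) and one without it (Mir98, chrX:151913214-151913321, plus strand) are shown for comparison, with GGAG in capitals. Such a match is a description of the sequence and not a measured binding site.
Mirlet7g: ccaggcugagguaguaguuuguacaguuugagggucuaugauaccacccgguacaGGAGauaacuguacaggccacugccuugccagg
Mir98: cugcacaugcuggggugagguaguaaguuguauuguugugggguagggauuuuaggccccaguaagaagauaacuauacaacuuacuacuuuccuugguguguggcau

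The reverse complement of the seed, CTACCTC, was searched on the transcript strand in the 3′ UTRs of the GENCODE M21 annotation (GRCm38, the mm10 build used for the files). Lin28b, Trim71 and Hmga2 each held 4 matches, Lin28a 2, Hmga1 1 and Dis3l2 0. Of 19112 3′ UTRs in all, 7.90% held any match and 10 genes held 4 or more. Longer UTRs hold more matches by length alone. Among the 1704 UTRs within 20% of the length of the Hmga2 UTR (2977 bases), 15.7% held a match and 0.0587% held at least 4. For Lin28b (4445 bases) these shares were 24.4% and 0.218% of 919 UTRs, and for Trim71 (5512 bases) 29.2% and 0.543% of 552. For Lin28a (2775 bases), 2.38% of 1808 UTRs of like length held at least 2.

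Of the 15 matches, 8 were followed by A, the base that lies opposite the first base of let-7 and is known to strengthen a target site. These 8 are shown from 15 bases before the match to 1 base after it, 5′ to 3′ in the transcript, with the seed match in capitals. The lines give the order of the site in its UTR.
Lin28a site 1, chr4:134005189-134005211, minus strand: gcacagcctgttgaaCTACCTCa
Lin28a site 2, chr4:134004551-134004573, minus strand: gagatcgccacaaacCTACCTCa
Lin28b site 1, chr10:45381022-45381044, minus strand: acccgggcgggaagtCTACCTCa
Trim71 site 1, chr9:114512472-114512494, minus strand: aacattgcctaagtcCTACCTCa
Trim71 site 2, chr9:114512376-114512398, minus strand: agtgataatttctatCTACCTCa
Trim71 site 3, chr9:114509047-114509069, minus strand: tttagtatggattttCTACCTCa
Trim71 site 4, chr9:114509021-114509043, minus strand: ttggcaaaaagttgtCTACCTCa
Hmga2 site 1, chr10:120364224-120364246, minus strand: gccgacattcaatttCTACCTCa

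In Trim71 all 4 matches were followed by A, in Lin28a both, and in Lin28b and Hmga2 only the match nearest the stop codon, which began 36 and 21 bases after it. The single match of Hmga1 was followed by T.

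**Figure D1:**
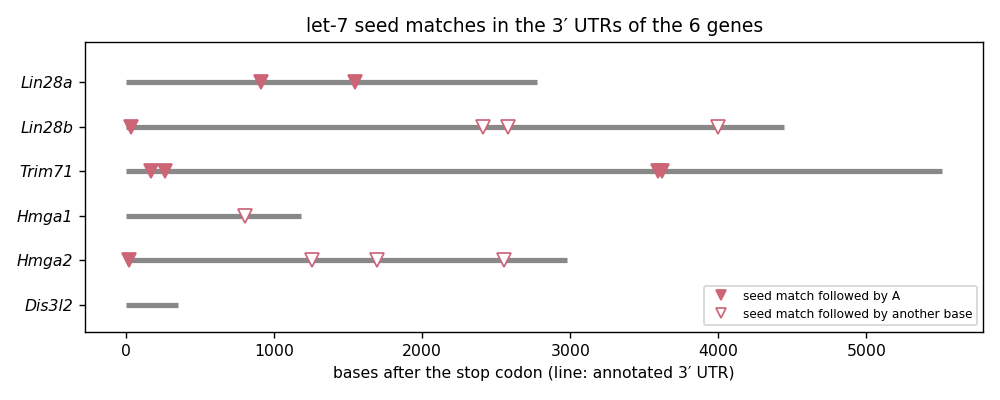
Positions of let-7 seed matches in the annotated 3′ UTRs of the 6 genes. The x axis gives bases after the stop codon, each line spans 1 UTR, filled triangles mark matches followed by A and open triangles matches followed by another base. Trim71 has 4 filled triangles, Hmga2 and Lin28b 1 filled and 3 open each, and Dis3l2 none on its UTR of 350 bases.

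To place the genes relative to each other, normalized reads were divided by length. Reads were counted over whole gene bodies, so that the result was given per kilobase (kb) of gene body and per kb of exon. On either scale Lin28a was the highest of the 6 genes. In WT cells it held 7064 ± 77.7 (SD, n = 3) normalized reads per kb of exon, a level above that of 98.4% of 16780 genes. It was followed on the exon scale by Trim71 at 1677 ± 26.4, Hmga1 at 1483 ± 86.0, Lin28b at 910 ± 25.7, Dis3l2 at 563 ± 16.1 and Hmga2 at 140 ± 10.4 (SD, n = 3 for each). The ranges over WT libraries did not overlap between any neighbours in this order. Per kb of gene body Hmga1 (351 ± 20.4) stood above Trim71 (273 ± 4.30), so that 4 of the 6 genes kept their place between the scales. In DKO cells Hmga2 reached 10.3 ± 0.409 normalized reads per kb of gene body and stood above Dis3l2 at 5.10 ± 0.132, whereas per kb of exon Hmga2 (321 ± 12.7) stayed below Dis3l2 (560 ± 14.4). The place of Hmga2, a gene of 115 kb with 3.71 kb of exon, thus depended on the length used.

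**Figure D2:**
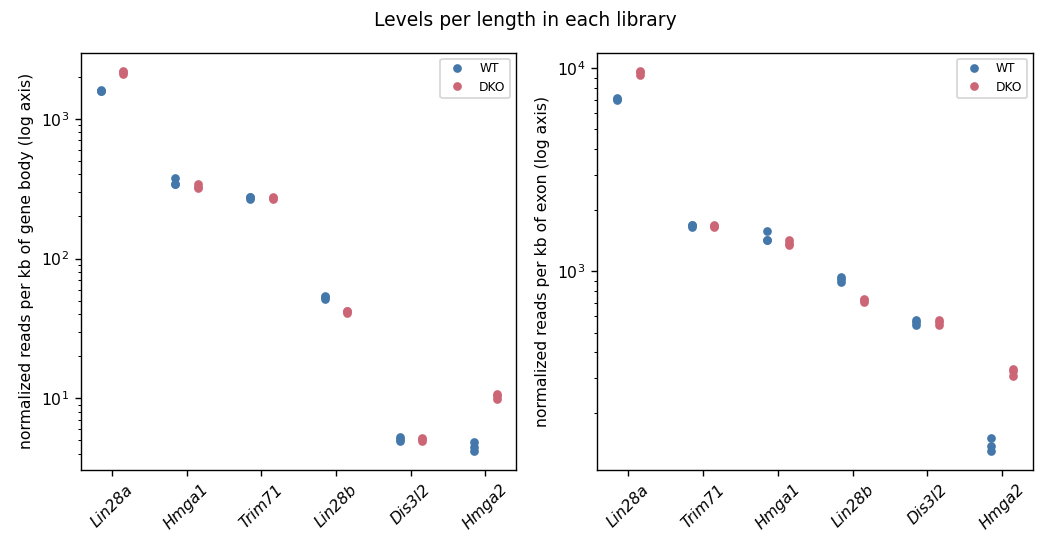
Normalized reads per kb of gene body (left) and per kb of exon (right) on log axes for each of the 6 genes, ordered by the WT mean. Each point is 1 library, blue for WT and red for DKO. Lin28a is highest in both panels, and Hmga2 shows the widest gap between the genotypes.

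To ask which of these genes differ without Smad2/3, DKO libraries were compared with WT libraries by limma on log2(normalized reads + 1), with Benjamini-Hochberg adjustment over all 25361 table entries tested. A gene was called changed at an adjusted p under 0.05 and a fold change over 1.5, the thresholds of the study. Of the 6 genes, 1 was changed, namely Hmga2, which rose. The corresponding share over all 17038 genes was 15.4% (2619 genes), with 7.34% higher and 8.03% lower in DKO cells. By adjusted p alone, without the fold change, 4 of the 6 genes passed (Lin28a and Hmga2 higher, Lin28b and Hmga1 lower), against 53.6% of all genes (27.1% higher and 26.5% lower). The groups of libraries did not overlap for 3 of the 6 genes, against 59.0% of all genes. No member fell past both thresholds by limma, edgeR, DESeq2 or limma-voom. The median log2 fold change of the 6 genes was -0.0055, against 0.00012 over all genes tested.

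Hmga2 (NM_010441, chr10:120361275-120476469, minus strand) encodes an AT-hook chromatin protein of embryonic cells whose loss gives the pygmy mouse. WT libraries held 486, 562 and 514 normalized reads and DKO libraries 1197, 1138 and 1232. Every DKO library stood above every WT library. The DKO mean of 1189 ± 47.1 (SD, n = 3) was 2.28 times the WT mean of 520.5 ± 38.4 (SD, n = 3). On the log2 scale the difference was 1.19 ± 0.05 (SE; 95% interval 1.08 to 1.30; limma adjusted p = 3.60e-17). Of all genes tested, 381 rose by more. Hmga2 had the lowest counts among the 6 genes, with 904 to 2376 reads per library. Signal from other annotated features in its body was small where it could be read: the intronic microRNA gene Mir763 and the antisense gene 9230105E05Rik held at most 13 reads in any library. The separate row of the pseudogene Hmga2-ps1 held 30.1 to 48.9 normalized reads (log2 fold change -0.33, limma adjusted p = 0.143). Another antisense gene, 1700006J14Rik, has no row, and whether strand was used in counting was not given in the sources used here.

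Markers of other cell types differed between the genotypes in both directions. The genes said here to rise or fall passed both thresholds, as did 7.34% (higher) and 8.03% (lower) of all genes tested. Of 7 trophoblast markers, 6 were tested and all 6 rose (Gata2, Gata3, Tfap2c, Cdx2, Krt7 and Hand1), their sum going from between 121 and 151 normalized reads in WT to between 604 and 740 in DKO libraries, while Elf5 stayed near 0 in both. The sum of 7 fibroblast markers went the other way, from between 1574 and 1653 to between 476 and 521. Most of this sum was Dcn, at 1330 ± 51.3 in WT and 300 ± 16.9 in DKO cells (SD, n = 3 for each). Of the 5 fibroblast markers tested, Dcn and Col1a2 fell. Col1a1 (log2 fold change -0.53), Col3a1 (0.36) and Thy1 (0.11) did not pass, and Postn was at or near 0. Of 8 extra-embryonic endoderm markers, 5 were tested and Gata6 rose, with sums of 65.0 to 93.9 in WT and 90.4 to 107 in DKO libraries, and Ttr near 0. Of 5 neural markers, Pax6 rose and Sox1 fell, with sums of 2026 to 2123 in WT and 1769 to 1795 in DKO libraries. The part of other cell types in the Hmga2 result was not tested, and in bulk RNA a change in the number of cells of a type and a change in RNA per cell cannot be told apart.

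The genes most like Hmga2 were sought among the 11930 that averaged 100 or more normalized reads, by Euclidean distance between centred log2 values over the 6 libraries. The closest were Megf11 (distance 0.0848), the non-coding gene D630045M09Rik (0.108) and Galnt6 (0.137). Their log2 fold changes were 1.19, 1.15 and 1.26. The distance was taken across both genotypes, so that it includes the difference between them.

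Hmga1 (NM_001025427, chr17:27556574-27563674, plus strand) encodes the AT-hook relative of Hmga2 that is widely expressed in dividing cells. WT libraries held 2411, 2410 and 2660 normalized reads and DKO libraries 2269, 2411 and 2322. The groups overlapped, and WT replicate 3 stood apart as the highest. The means were 2494 ± 145 (SD, n = 3) in WT and 2334 ± 71.5 (SD, n = 3) in DKO cells. The log2 difference was -0.09 ± 0.04 (SE; 95% interval -0.17 to -0.02; limma adjusted p = 0.0349), far below the fold-change minimum. Without WT replicate 3 it was -0.05 (adjusted p = 0.296), without DKO replicate 1 -0.07 (adjusted p = 0.130) and without DKO replicate 3 -0.09 (adjusted p = 0.0744), and with no filter on low values the adjusted p was 0.0570. The symbol has 14 rows in the table, of which the highest is used here. Its values are uncertain to the extent that reads mapping to several places in the genome were counted. The neighbouring gene AI413582 on the opposite strand, which overlaps the end of Hmga1, held at most 188 reads in a library.

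Lin28a (NM_145833, chr4:134003330-134018841, minus strand) encodes the Lin28 protein typical of pluripotent cells. WT libraries held 24713, 25052 and 24513 normalized reads and DKO libraries 33833, 33750 and 32560. All DKO libraries stood above all WT libraries. The DKO mean of 33381 ± 712 (SD, n = 3) was 1.35 times the WT mean of 24759 ± 272 (SD, n = 3). The log2 difference of 0.43 ± 0.02 (SE; 95% interval 0.39 to 0.48; limma adjusted p = 1.09e-15) was larger than the spread between replicates, but below the fold-change minimum of 1.5. An antisense gene annotated within Lin28a, Gm13061, has no row.

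Lin28b (NM_001031772, chr10:45376620-45470201, minus strand) encodes the second Lin28 protein. WT libraries held 5052, 4929 and 4774 normalized reads and DKO libraries 3938, 3825 and 3913. Here all DKO libraries stood below all WT libraries. The DKO mean of 3892 ± 59.3 (SD, n = 3) was 0.791 times the WT mean of 4918 ± 139 (SD, n = 3). The log2 difference of -0.34 ± 0.03 (SE; 95% interval -0.40 to -0.28; limma adjusted p = 7.61e-11) also passed by adjusted p alone and not by fold change. The Lin28 paralogs thus differed from WT in opposite directions.

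Trim71 (NM_001042503, chr9:114507133-114564369, minus strand), the TRIM-NHL gene, held 15367, 15789 and 15797 normalized reads in WT and 15639, 15798 and 15383 in DKO libraries. The groups overlapped, with means of 15651 ± 246 and 15606 ± 209 (SD, n = 3 for each). The log2 difference was -0.0041 ± 0.0231 (SE; limma adjusted p = 0.894), and its 95% interval of -0.05 to 0.04 leaves out changes in either direction as large as those of Lin28a and Lin28b.

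Dis3l2 (NM_001172157, chr1:86703819-87050095, plus strand), the exonuclease that degrades uridylated let-7 precursors, held 1720, 1784 and 1821 normalized reads in WT and 1811, 1768 and 1720 in DKO libraries. The groups overlapped, with means of 1775 ± 50.9 and 1766 ± 45.6 (SD, n = 3 for each). The log2 difference was -0.0069 ± 0.0363 (SE; 95% interval -0.08 to 0.07; limma adjusted p = 0.886). Within its 346 kb body 12 other genes are annotated, of which 3 lie on the opposite strand and none has a row of its own.

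**Figure D3:**
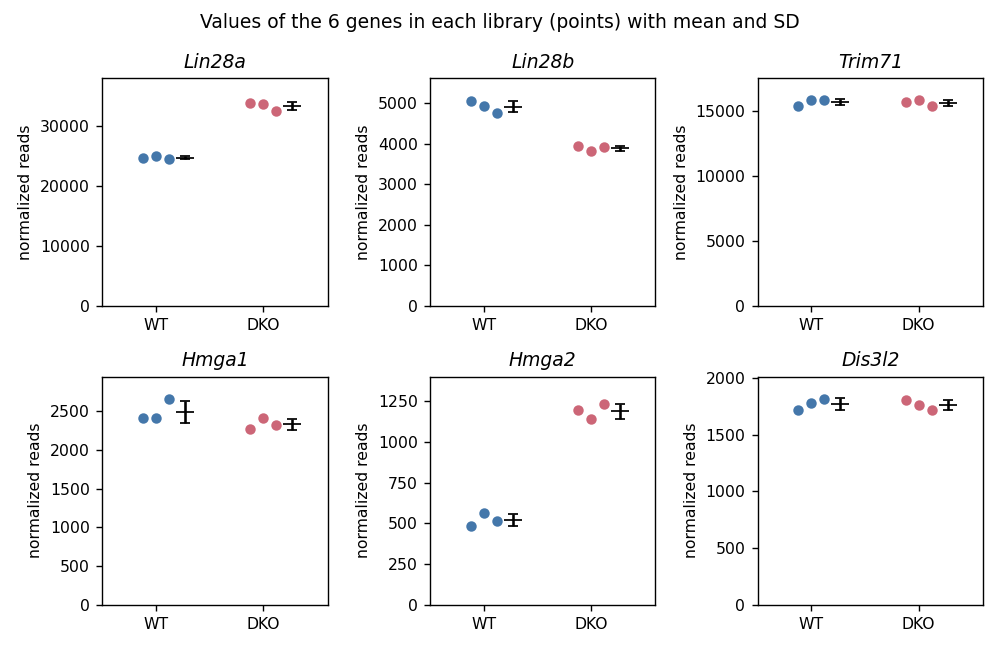
Normalized reads of the 6 genes in each library. Each point is 1 library (blue, WT; red, DKO), the black mark beside it is the mean with SD (n = 3), and each y axis starts at 0. The genotypes are separate for Lin28a, Lin28b and Hmga2 and overlap for Trim71, Hmga1 and Dis3l2.

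To compare paralogs within a library, where the scaling of libraries has no effect, the ratios of Lin28b to Lin28a and of Hmga2 to Hmga1 were taken. The ratio of Lin28b to Lin28a reads was 0.204, 0.197 and 0.195 in WT and 0.116, 0.113 and 0.120 in DKO libraries. Lin28a thus held 5.04 ± 0.128 (SD, n = 3) times the reads of Lin28b in WT and 8.58 ± 0.251 times in DKO cells, a log2 difference of -0.77 in the ratio of Lin28b to Lin28a. The ratio of Hmga2 to Hmga1 reads was 0.201, 0.233 and 0.193 in WT and 0.528, 0.472 and 0.530 in DKO libraries, a log2 difference of 1.29. Reads were not divided by length here, so that each ratio compares the genotypes and does not give the relative level of the paralogs. Neither ratio overlapped between the genotypes. With 3 libraries against 3, the exact two-sided permutation test gave p = 0.1 for each, the smallest value this design allows (0.1 after Benjamini-Hochberg adjustment over the 2 ratios).

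**Figure D4:**
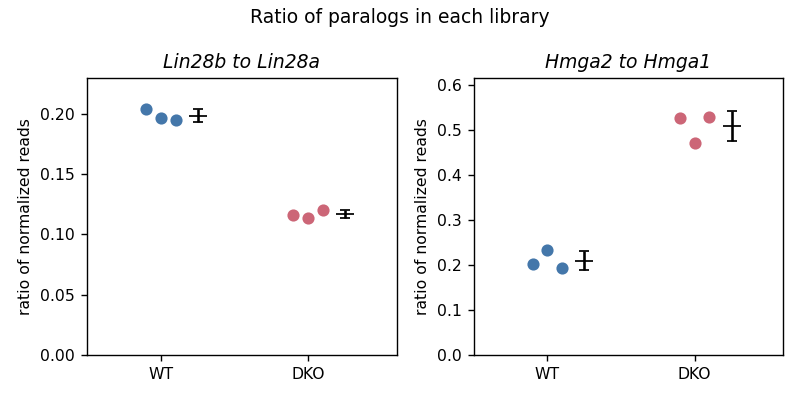
Ratio of normalized reads of paralogs in each library, Lin28b to Lin28a (left) and Hmga2 to Hmga1 (right). Points are libraries (blue, WT; red, DKO), the black mark is the mean with SD (n = 3), and the y axes start at 0. The Lin28b to Lin28a ratio is lower in all 3 DKO libraries and the Hmga2 to Hmga1 ratio is higher in all 3.

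Rows for the let-7 hairpins themselves were examined next. The libraries were made from total RNA without selection for small RNA, so that these rows count reads that cross a hairpin and do not measure mature let-7. Of 12 let-7 family rows, 3 held 0 reads in all libraries (Mirlet7a-2, Mirlet7b and Mirlet7c-1). A count of 0 does not show absence, since a library expected to give up to 3 reads can still give 0. The rows with most reads lie within introns or exons of host genes on the same strand, Mirlet7g in Wdr82 and Mirlet7f-2 and Mir98 in Huwe1, and they cannot be told apart from host RNA. Mirlet7g held 160, 165 and 198 normalized reads in WT and 184, 183 and 178 in DKO libraries (limma adjusted p = 0.570), while its host Wdr82 differed by 0.08 on the log2 scale. Of the 6 rows tested, 1 passed both thresholds, against 15.4% of all genes. Mirlet7f-1 held 9.67, 13.7 and 12.8 normalized reads in WT and 24.2, 15.2 and 22.3 in DKO libraries (log2 fold change 0.71 ± 0.28, SE; limma adjusted p = 0.0331). This call rested on few reads, and Mirlet7f-1 lies within the annotated gene 6720427I07Rik on the same strand, whose RNA cannot be told apart from that of the hairpin. It was lost by adjusted p with DESeq2 (0.0641) and without WT replicate 1 (0.118), DKO replicate 1 (0.134) or DKO replicate 3 (0.101), and by fold change with a pseudocount of 10. Mirlet7d and Mirlet7a-1, in the same cluster and host gene, had log2 fold changes of 0.39 and 0.36 (limma adjusted p = 0.154 and 0.444).

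The machinery through which let-7 is made and used showed 1 change among 15 genes (6.67%, against 15.4% of all genes). Ago1, an Argonaute protein that carries microRNAs to their targets, fell, with 4549 ± 112 normalized reads in WT and 2309 ± 43.5 in DKO cells (SD, n = 3 for each; log2 fold change -0.98, limma adjusted p = 1.21e-20). The median log2 fold change of these 15 genes, among them Drosha, Dgcr8, Xpo5 and Dicer1, was -0.01. Ago2, the Argonaute with slicer activity, had a log2 fold change of -0.19 and did not pass the fold-change minimum.

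Of 16 genes of RNA tailing and 3′ or 5′ decay, 0 were changed by limma, edgeR, DESeq2 or limma-voom, against 15.4% of all genes by limma. Of the 16, 11 had an unadjusted limma p under 0.05. By adjusted limma p alone 3 were higher and 7 lower, against 27.1% and 26.5% of all genes. The log2 fold changes of the 16 genes ran from -0.25 to 0.20 with a median of -0.0062. The members with the highest reads were Xrn2, a nuclear exonuclease (0.14), Dis3, the exosome nuclease related to Dis3l2 (-0.06), and the exosome subunits Exosc2 (-0.14) and Exosc10 (-0.07). The terminal uridylyl transferases that tail let-7 precursors with Lin28a, Zcchc11 (Tut4) and Zcchc6 (Tut7), were singled out after their values were seen. They had log2 fold changes of 0.20 (limma adjusted p = 2.93e-06) and 0.05 (adjusted p = 0.200).

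Of 24 other let-7 targets, 3 were changed (12.5%, against 15.4% of all genes), 1 higher and 2 lower, with a median log2 fold change of 0.03. Arid3a, a DNA-binding protein of the ARID family, rose from 168 ± 7.40 to 371 ± 19.1 normalized reads (log2 fold change 1.13, limma adjusted p = 7.37e-13). Myc, the growth regulator, fell from 814 ± 50.7 to 540 ± 9.94 (-0.59, adjusted p = 1.96e-10; SD, n = 3 for each gene and genotype). Myc lay at the fold-change minimum and dropped below it with a pseudocount of 10 (-0.58) and without WT replicate 1 (-0.54), DKO replicate 1 (-0.58) or DKO replicate 3 (-0.58). Further targets with 4 or more seed matches were looked at after their values were seen. Nr6a1, a nuclear receptor with 8 matches, had a log2 fold change of 0.35, and Igf2bp1, an oncofetal RNA-binding protein with 4, one of 0.08. Of the 10 genes with at least 4 matches, 9 were tested. Hmga2 was the 1 of these 9 that passed both thresholds, against 15.4% of all genes.

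Taken by the number of seed matches, the median log2 fold change was -0.00078 for the 13677 genes tested without a match, 0.0098 for 1180 genes with 1, 0.03 for 138 genes with 2 and 0.07 for 24 genes with 3 or more. Among the last, 3 rose and 3 fell (12.5% each), against 7.11% and 8.31% of the genes without a match. The median UTR length rose from 840 to 4449 bases over these classes, and its part in the medians was not tested.

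Of 5 mRNAs known to be repressed by Trim71, 2 were changed (40.0%, against 15.4% of all genes) and both rose. Rbl2, a pocket protein of the Rb family, went from 361.5 ± 10.3 to 581 ± 19.1 normalized reads (log2 fold change 0.68, limma adjusted p = 8.02e-11). The immediate early factor Egr1 went from 1021 ± 67.0 to 1796 ± 215 (0.81, adjusted p = 1.32e-12; SD, n = 3 for each). Cdkn1a (0.19), Rbl1 (0.05) and Mbnl1 (-0.28) did not pass both thresholds, and the median of the list was 0.19. Trim71 reads themselves differed by less than the spread between replicates.

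Relatives of the 6 genes were read last, chosen by a shared domain for the TRIM-NHL and cold-shock lists. The HMG list shares the HMG name with Hmga1 and Hmga2 and not their AT-hook. Of 3 TRIM-NHL relatives 1 was changed (33.3%, against 15.4% of all genes). Trim2, a ubiquitin ligase, rose from 1818 ± 26.2 to 5234 ± 83.3 normalized reads (SD, n = 3 for each; log2 fold change 1.52, limma adjusted p = 3.02e-25), while Trim3 (-0.04) and Trim32 (0.05) did not pass. Of 6 genes with a cold-shock domain 1 was changed (16.7%, against 15.4% of all genes), namely Csdc2, which fell, with 50.4 ± 3.93 normalized reads in WT and 13.0 ± 5.21 in DKO cells (log2 fold change -1.94, limma adjusted p = 1.67e-07; SD, n = 3 for each), and the median was -0.09. Of 7 further HMG genes 0 were changed by limma, edgeR, DESeq2 or limma-voom, against 15.4% of all genes by limma. Of the 7, 3 had an unadjusted limma p under 0.05, and the median log2 fold change was -0.04. By adjusted limma p alone 2 were higher and 1 lower, against 27.1% and 26.5% of all genes. The members with the highest reads, the nucleosome-binding Hmgn1 (-0.04) and the HMG-box genes Hmgb1 (-0.11), Hmgb2 (0.14) and Hmgb3 (0.16), all lay far from the log2 fold change of 1.19 of Hmga2.

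**Figure D5:**
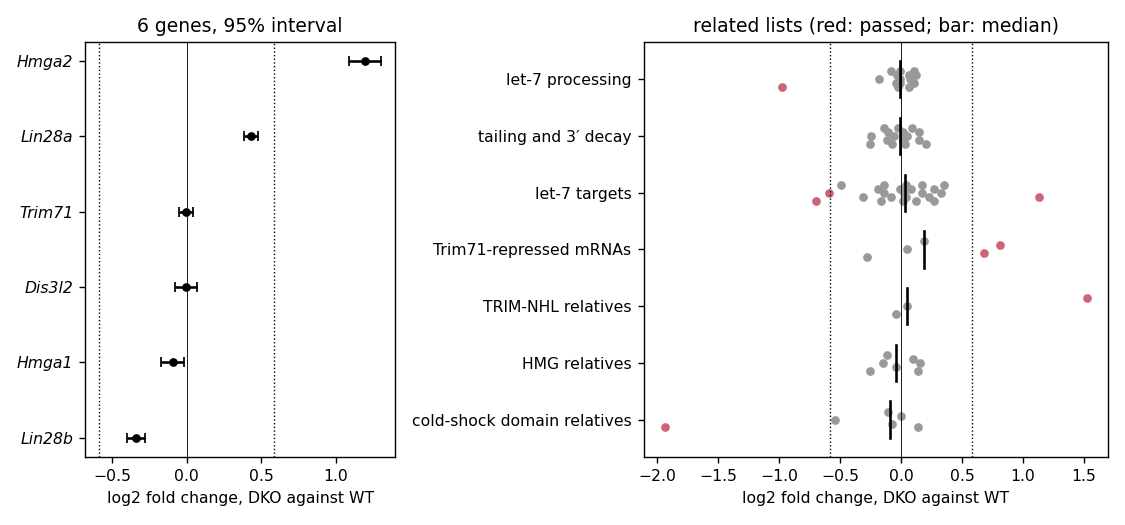
Log2 fold changes, DKO against WT, of the 6 genes with their 95% limma intervals (left) and of the genes of 7 related lists (right), where red points passed both thresholds and black bars are list medians. Dotted lines mark a fold change of 1.5 in either direction. Hmga2 is the only one of the 6 genes beyond the lines, and each list has at most 3 genes that passed.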

How the data were processed

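Whole-gene RNA-seq values of 3 WT and 3 DKO libraries were used. The deposited signal values are reads per gene divided by a size factor of each library. The processing notes and methods of the authors name STAR, Bowtie2, SAMtools and DESeq2 with the mm10 build, removal of duplicate reads and counting over gene bodies, and strand use in counting was not given in the sources used here. Dividing each column by its smallest step returned whole reads for 100% of values in every library (tolerance 0.01 reads). A second deposited table holds the authors' own comparison (fold changes and p-values) and was not used. Rows without a symbol (138 of 33812, 0.517% of reads) were left out of the library totals.

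Entries passing filterByExpr on recovered reads (edgeR 4.0.16) were fitted by limma 3.58.1 with a trended eBayes step on log2(value + 1) in R 4.3.3. Adding 1 understates changes of low genes. DESeq2 1.42.0, edgeR quasi-likelihood and limma-voom on the recovered reads, other scalings, pseudocounts, filters and thresholds, and the removal of each library were alternatives. The fit was tested on simulated data, and exact permutation tests used scipy 1.17.1. Gene positions, exon lengths and UTRs came from GENCODE M21 (GRCm38), where 97.9% of named rows had a position. Intervals cover the spread between libraries. Deviations from the group means were uncorrelated between libraries with the same number (r from -0.03 to 0.04 over 11930 genes), so that the numbers were not taken as pairs. No library repeated another, as replicates varied 3.44 to 5.64 times more than sampling alone gives.

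The 6 genes and all lists were chosen with earlier results of these data known. The genes named were the 6, Smad2 and Smad3, the changed genes of each list (or, where none changed, up to 4 with the highest mean), the 3 genes closest to each changed member among those averaging 100 or more normalized reads, and let-7 rows with reads. Other names are said in the text to be chosen later, or serve as examples of a list. A changed gene of the let-7 target list is counted but not reported here.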

Additional observations from a re-analysis of the deposited data

How the results depend on the processing

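The call of Hmga2 and the lack of a call for the other 5 genes held under 18 of 19 alternatives. Without a fold-change threshold 4 of the 6 were called and 9133 genes in all. A fold change over 2 left 1155 genes and a mean of at least 50 normalized reads, which tests fewer genes, left 1588, against 2619. Leaving out single libraries gave 2509 to 2573 genes, edgeR 2645, DESeq2 2479 and limma-voom 2686. Log2 fold changes ranged from 1.14 to 1.25 for Hmga2, 0.42 to 0.45 for Lin28a and -0.36 to -0.32 for Lin28b. With the replicate block 2626 genes and the same number of the 6 (1) were called. The pairing correlations were 0.0088, -0.0293 and 0.0365, and same-numbered libraries share only a number.

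Of the 5 uncalled genes, Lin28a, Lin28b and Hmga1 kept their sign under every alternative run, and the sign of Trim71 and Dis3l2 depended on single libraries. Trim71 ran from -0.017 to 0.0063 and Dis3l2 from -0.029 to 0.012 with 1 library left out. Trim71 went to 0.0023 without WT replicate 2, 0.0027 without WT replicate 3 and 0.0063 without DKO replicate 3, and Dis3l2 to 0.012 without WT replicate 3 and 0.012 without DKO replicate 3. The paralog ratios ranged from -0.79 to -0.75 (Lin28b to Lin28a) and from 1.23 to 1.37 (Hmga2 to Hmga1) on the log2 scale over the 8 alternatives run for them, and the exact sign-flip test with the replicate block gave p = 0.25, the smallest that 3 pairs allow. Per kb of exon in place of gene body, 4 of the 6 genes kept their place in the level order. Low counts limit Mirlet7f-1 (11 of 16 alternatives with the same fold-change threshold kept the call) and the rows at 0.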
